A study of Danio rerio with 12 samples.

Results

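Zebrafish larvae that had received reserpine as zygotes were compared with vehicle-injected larvae at 4 days post fertilisation (dpf). The comparison took every array whose title names that age and one of those injections, which gave 4 of the 12 arrays of the series, 2 per group. Each array carried the total RNA of whole larvae, pooled from 30 to 40 animals, and the labels call the 2 arrays of a group biological replicates. All animals were wildtype of the AB line and had been freed of the chorion with Proteinase K. Reserpine was taken up in ethanol, then in DMSO, and brought into a KCl injection solution with TRITC-dextran as the tracer. Control embryos received KCl, TRITC-dextran, ethanol and DMSO without reserpine, so that these agents were common to both groups. No source used here gives the injected dose. The other groups used below are larvae injected with 5-HT (serotonin) and collected at 4 dpf, and the reserpine and control larvae of 2 dpf. Vehicle was the only comparator: uninjected larvae were not analysed here, and pools of whole larvae hide both the tissue and the animal in which a transcript lay.

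Reserpine blocks the vesicular monoamine transporter, which loads serotonin, dopamine, noradrenaline and adrenaline into vesicles. Cells so treated lose their vesicular stores, and the free amine is broken down by monoamine oxidase. The embryo holds serotonin before it has neurons, and the series title puts the question of what that early serotonin does for later development. By 4 dpf a larva has hatched and has a clear lens, a working exocrine pancreas, circulating phagocytes and serotonin neurons in the hindbrain.

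The labels of 4 dpf reserpine replicate 2 disagree: its title and age give 4 days, its description 2 days. Exocrine pancreas genes, which code for digestive enzymes, had a mean log2 level of 10.47 on that array. They had 10.59 to 10.8 on the other arrays titled 4 dpf and 6.196 to 7.435 on the 6 arrays of 2 dpf. The array's level lay just below the other arrays of 4 dpf and far above those of 2 dpf, and so with its title. The groups were not consistently tighter within than between. The control replicates correlated at r = 0.988 over the 58127 features tested and the reserpine replicates at 0.977. Between the groups, the arrays of the same replicate number correlated at 0.987 (replicate 1) and 0.99 (replicate 2). Control replicate 1 correlated at 0.985 with reserpine replicate 2, and control replicate 2 at 0.98 with reserpine replicate 1. A difference of 2-fold or more separated the reserpine replicates from each other in 254 genes, the 5-HT replicates in 109 and the control replicates in 73. Between the means of reserpine and control such a difference was seen in 22 genes. In 14178 of the 18385 genes tested (77.1%) the reserpine replicates lay further apart than the group means. A difference between single arrays carries more spread than one between means of 2 arrays, so these counts are not like for like. A difference of 2-fold or more from the control mean was seen in 118 genes on reserpine replicate 1 and in 28 on replicate 2. Results are therefore given for each reserpine array as well as for their mean.

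No transcript passed the test between reserpine and control larvae at 4 dpf. limma called 0 of 58127 features (0% called) at an adjusted p under 0.05, and the smallest adjusted p was 1. Without adjustment 1004 features (1.73%) had a p under 0.05, of which 658 were higher in reserpine (1.13%) and 346 lower (0.595%), against 2906 set by the threshold alone. Many of these features hold the same values as another, more often among the higher than among the lower ones, of which 279 were distinct, so the excess of higher features is in part one of repeated features. Of the 18385 genes that had a symbol of their own, each represented by 1 feature, 116 had such a p (0.631%), 45 of them higher (0.245%) and 71 lower (0.386%), against 919 set by the threshold. The median 95% interval of a gene reached 0.394 log2 units to either side of its estimate. The median difference of all genes was -0.02, with 7438 genes above 0 (40.5%) and 10555 below (57.4%). Both reserpine arrays lay above both controls in 1139 genes (6.2%) and below both in 2267 (12.3%). The words higher and lower below describe measured levels of genes that did not pass.

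Among the genes with the widest differences, lens genes were low and inflammation genes high. Of the 14 genes at least 2-fold lower, 8 belonged to a list of lens genes. Of the 8 genes at least 2-fold higher, 4 belonged to a list of myeloid and inflammation genes. Each of these lists held 48 of the 18385 genes tested. Both lists were chosen with earlier results of these data known, so these counts only describe the values and were not tested. The 4 higher genes on the list were mmp13a, mmp9, il1b and timp2b, and the other 4 were fosl1a, crp3, ifi44a1 and lepb. Of these, ifi44a1 and lepb are named because their values were seen, and each was high on 1 reserpine array alone. The ifi44a1 level, of an interferon-induced gene family, was 2.445 log2 units above the control mean on reserpine replicate 1 and -0.345 from it on replicate 2. The level of lepb, a leptin gene, was -0.12 from the control mean on replicate 1 and 2.15 above it on replicate 2.

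**Figure D1:**
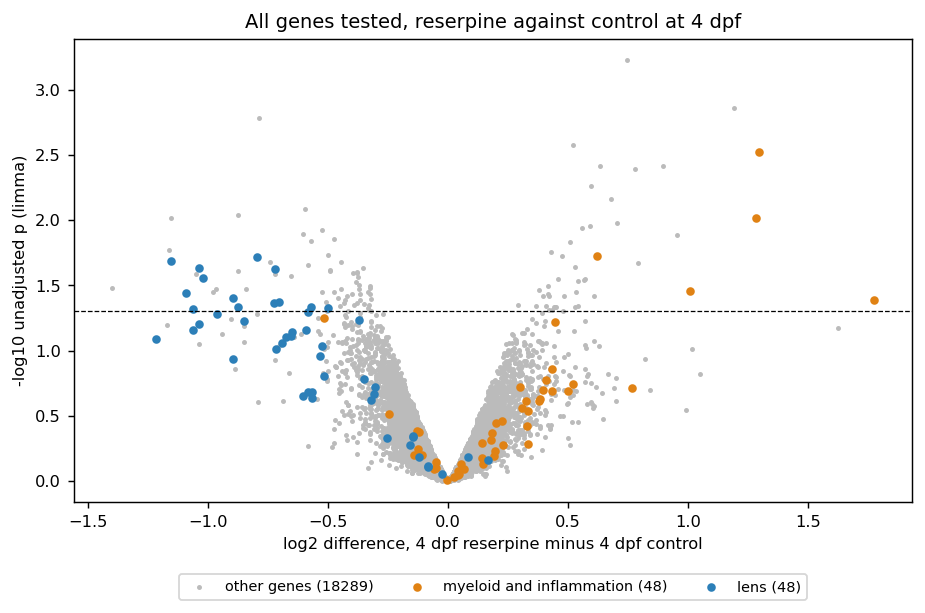
The horizontal axis is the log2 difference between the mean of the 2 reserpine arrays and the mean of the 2 control arrays at 4 dpf, the vertical axis the unadjusted limma p on a -log10 scale, and each point is 1 of 18385 genes. The dashed line marks an unadjusted p of 0.05; 13 lens genes lie above it on the left and 5 inflammation genes on the right, and no gene passed after adjustment.

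The monoamine genes, the pathway in which reserpine acts, lay close to control. Of 16 such genes looked for, 14 were measured and tested, and none had an unadjusted p under 0.05. The longer list of genes for monoamine synthesis, transport and breakdown had 24 members tested, with 5 above control and 19 below, a median of -0.0525 (all genes -0.02) and 5 members below both controls on both reserpine arrays, where 12.3% of all genes were. The vesicular transporter slc18a2, the target of reserpine in the brain, read 7.03 and 7.2 on the controls and 7.5 and 6.92 on the reserpine arrays. The reserpine arrays lay on either side of the controls, with a difference of 0.095 (SE 0.183, 95% interval -0.316 to 0.506). The related transporter slc18a1, known from endocrine cells in mammals, read 4.73 and 4.74 on the controls and 4.53 and 4.34 on the reserpine arrays. That is a difference of -0.30 (SE 0.199, 95% interval -0.746 to 0.146) at a level below the median of each array.

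Of the enzymes that make serotonin, tph2, the neuronal tryptophan hydroxylase, read 7.58 and 7.52 on the controls and 7.65 and 7.51 on the reserpine arrays. Its 95% interval was -0.337 to 0.397. The other tryptophan hydroxylases had differences of -0.19 (tph1a) and -0.03 (tph1b), and ddc, which decarboxylates the precursors of serotonin and of dopamine, had -0.155. The catecholamine enzymes th and th2, tyrosine hydroxylases, and dbh, which turns dopamine into noradrenaline, had -0.035, -0.085 and -0.025. The plasma membrane carriers that take amines back into cells had -0.035 (slc6a4a, serotonin), -0.12 (slc6a4b, serotonin) and -0.10 (slc6a2, noradrenaline). In all of these but tph1a the reserpine and control arrays overlapped.

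The breakdown genes mao and comtb were lower on both reserpine arrays than on both controls, with 95% intervals that included 0. The only zebrafish monoamine oxidase gene, mao, read 9.04 and 8.72 on the controls and 8.66 and 8.55 on the reserpine arrays. The groups did not overlap, and the difference of -0.275 had a 95% interval of -0.625 to 0.0746. The methyltransferase gene comtb, whose enzyme inactivates catecholamines, read 8.16 and 8.22 on the controls and 8.01 and 7.94 on the reserpine arrays (difference -0.215, 95% interval -0.618 to 0.188). The transcription factor gene fev, a marker of serotonin neurons, had a difference of -0.15.

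**Figure D2:**
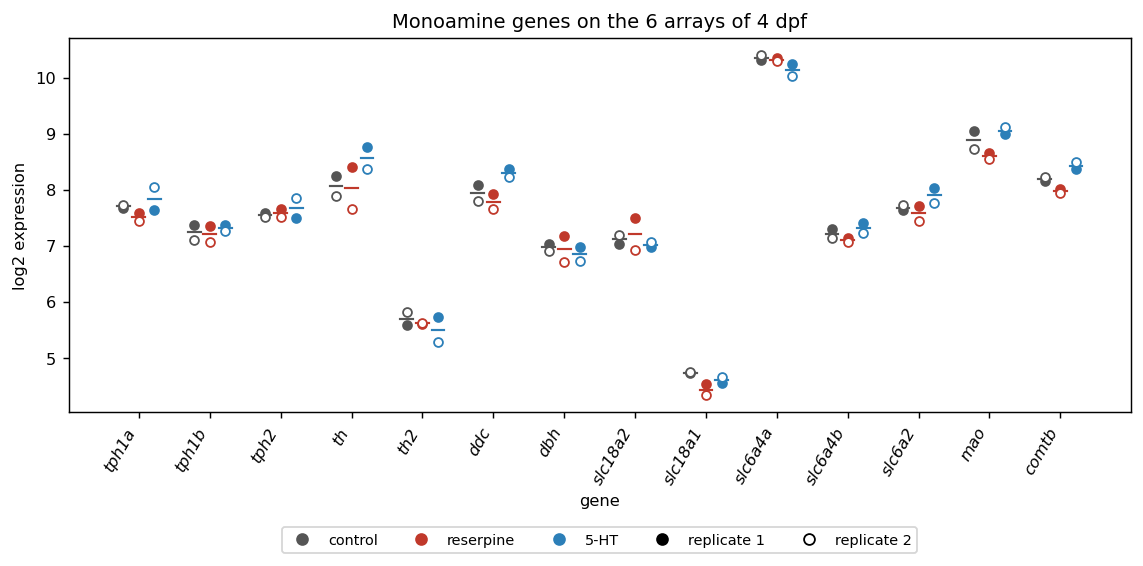
The vertical axis is the log2 expression level and each column is 1 of 14 monoamine genes, with control, reserpine and 5-HT arrays of 4 dpf side by side. Filled points are replicate 1, open points replicate 2 and short lines the group means; the 2 slc18a2 reserpine arrays, 7.5 and 6.92, lie on either side of the controls, and the mao reserpine arrays, 8.66 and 8.55, lie below both controls.

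Receptor genes varied around control. Of 20 serotonin receptor genes, 8 were above control and 11 below, with a median of -0.0275. One was lower at an unadjusted p under 0.05, where 0.386% of all genes were. It was HTR3B, a subunit of the ion channel that serotonin opens. It read 6.91 and 6.88 on the controls and 6.53 and 6.26 on the reserpine arrays, a difference of -0.50 (SE 0.176, 95% interval -0.896 to -0.104, limma adjusted p = 1). Its 5-HT arrays read 6.72 and 6.69 and so lay between the groups. The subunit gene htr3a read 8.31 and 8.41 on the controls and 8.11 and 8.13 on the reserpine arrays, likewise with no overlap (difference -0.24, 95% interval -0.578 to 0.0981). The G protein-coupled receptor genes htr2ab and htr1fb had -0.185 and -0.205, and htr1e 0.245, each with both reserpine arrays on the same side of both controls. Of 27 dopamine and adrenergic receptor genes 7 were above control and 20 below. One, the dopamine receptor gene drd7, was higher at an unadjusted p under 0.05, where 0.245% of all genes were. It read 5.61 and 5.82 on the controls and 6.02 and 6.38 on the reserpine arrays, a difference of 0.485 (SE 0.202, 95% interval 0.0326 to 0.937, limma adjusted p = 1). The genes drd1a, drd3 and adrb3b had differences of 0.32, -0.24 and -0.275, and none of these had an unadjusted p under 0.05.

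Lens genes were the lowest group of the 45 lists examined by the median for the mean of both reserpine arrays, and on replicate 1. On replicate 2 alone the circadian clock list (-0.305) and the hepatic and lipid metabolism list (-0.195) had lower medians than the lens list (-0.192). The fibre cells of the lens fill themselves with crystallins, proteins that give the lens its refractive index, and join through water channels and gap junctions. Of 52 lens genes on the array 48 were tested, of which 46 lay below control and 2 above, with a median of -0.587 against -0.02 for all genes. The differences ran from -1.22 to 0.165. At an unadjusted p under 0.05 there were 13 lower and 0 higher members, where 0.386% of all genes were lower, and the adjusted p was 1 for each. Both reserpine arrays lay below both controls in 27 of the 48, where 12.3% of all genes did. In pools of whole larvae, fewer lens cells and less transcript per cell cannot be told apart.

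By class, the genes of the fibre cell membrane, its junctions and its cytoskeleton had the lowest median, while the lowest single gene was a gamma crystallin gene. These classes within the lens list were drawn after the values were seen. All 10 genes of that class lay below control, where 57.4% of all genes did, and their median was -0.958. In 9 both reserpine arrays lay below both controls, where 12.3% of all genes did. The water channel gene mipb read 10.92 and 10.37 on the controls and 8.99 and 9.99 on the reserpine arrays, which is 2.23-fold lower (log2 -1.155, SE 0.416, 95% interval -2.09 to -0.222). Both reserpine arrays were below both controls, replicate 1 by the wider margin. The gene lim2.3, of a family that codes for a membrane protein of fibre cells in mammals, read 8.94 and 8.42 on the controls and 7.14 and 8.18 on the reserpine arrays (log2 -1.02). Its relative lim2.1 had -0.795. The beaded filament genes bfsp1 and bfsp2, which code for the intermediate filament proteins of lens fibres, showed the same order of arrays. On the controls bfsp1 read 11.19 and 10.95, and on the reserpine arrays 9.39 and 10.57 (log2 -1.09, 95% interval -2.09 to -0.0856). On the controls bfsp2 read 10.47 and 10.14, and on the reserpine arrays 8.62 and 9.87 (log2 -1.06, 95% interval -2.11 to -0.01). Beyond the 5 members with the smallest p, members are named here because their values were seen.

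The crystallins were lower mainly on 1 array. All 11 beta crystallin genes lay below control, with a median of -0.535, and so did 22 of 24 gamma crystallin genes, with a median of -0.567. The 3 alpha crystallin genes lay below control as well. Of all genes 57.4% did. Several gamma crystallin genes are close copies of each other, so their probe sets may share signal and are not separate measurements. The abundant crybb1 read 13.32 and 13.15 on the controls and 12.28 and 13.12 on the reserpine arrays. The beta crystallin gene cryba4 read 13.21 and 13.15 on the controls and 12.21 and 13.1 on the reserpine arrays. In cryba1b, the beta crystallin gene with the smallest p, the difference was -1.035 (SE 0.383, 95% interval -1.89 to -0.177). The gamma crystallin gene crygn1 read 7.09 and 6.51 on the controls and 5.83 and 6.33 on the reserpine arrays (log2 -0.72). For cryaa, whose product is also a chaperone, the controls read 9.67 and 9.06 and the reserpine arrays 7.81 and 9. In crybb1, cryba4, crygn1 and cryaa reserpine replicate 2 lay just below the lower control, and replicate 1 lay much further below it.

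The 2 reserpine arrays thus differed in the size of the lens difference. On replicate 1 the median lens gene lay at -1.08 from the control mean, and 45 of 48 genes were below both controls. On replicate 2, the array with the disputed age label, the median was -0.192, and 28 of 48 were below both controls and 6 above both. On that array 28 of 38 hepatic and lipid metabolism genes and 31 of 48 ion channel genes were also below both controls. Of 50 heat shock and unfolded protein genes 4 were. No share over all genes is given for single arrays. The medians over all features were 6.45 and 6.56 on the reserpine arrays and 6.47 and 6.51 on the controls. The part of a shift of the whole array in these counts was not tested. Without replicate 1 no lens gene had an unadjusted p under 0.05, and 36 of 48 lay below control. Without replicate 2, 34 of 48 were lower at that threshold, where 1.6% of all genes were. Without control replicate 1 the count was 1 (0.245% of all genes) and the median -0.46, and without control replicate 2 they were 10 (0.261%) and -0.72. The control replicates differed as well, by a median of -0.26 between replicate 2 and replicate 1. The list means were 8.273 and 8.052 on the controls, 7.172 and 7.985 on the reserpine arrays and 7.989 and 8.26 on the 5-HT arrays. At 2 dpf they were 7.961 and 8.379 on the controls and 7.888 and 8.42 on the reserpine arrays, with a median difference of -0.005.

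Genes outside the list that are known from the lens also stood among the 15 lowest by p. The gene gje1a, a connexin family gene, read 7.71 and 6.95 on the controls and 5.51 and 6.83 on the reserpine arrays (log2 -1.16, 95% interval -2.06 to -0.261). The galectin-related gene grifin, which codes for a lens protein in mammals, read 8.12 and 7.42 on the controls and 6.7 and 7.09 on the reserpine arrays (log2 -0.875, SE 0.268, 95% interval -1.48 to -0.274). For lctlb, a lactase-like gene, the controls read 9.16 and 8.7 and the reserpine arrays 7.38 and 8.17 (log2 -1.155, 95% interval -1.96 to -0.353). All 3 were lower on both reserpine arrays. The calpain gene capn3a, entered with the skeletal muscle list, had -0.965 and the same order of arrays, at 10.12 and 9.65 on the controls and 8.49 and 9.35 on the reserpine arrays. The median of the 75 muscle genes was 0.025. Photoreceptor genes, from the tissue next to the lens, had a median of 0 over 61 genes, with 30 above control and 27 below. Their median was 0.08 on reserpine replicate 1 and -0.155 on replicate 2.

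**Figure D3:**
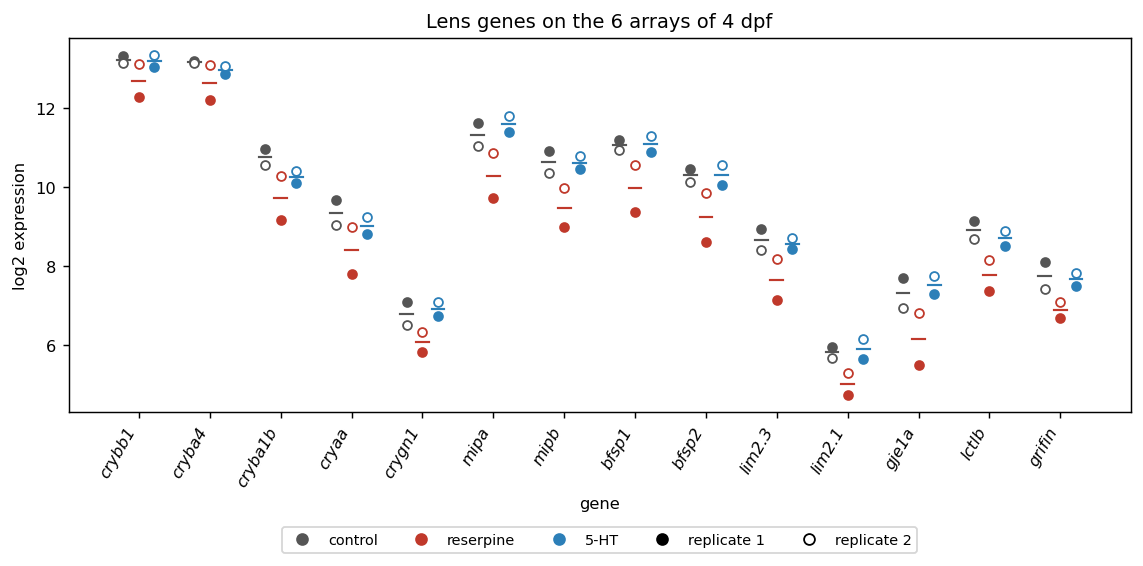
The vertical axis is the log2 expression level and each column is 1 lens gene, with control, reserpine and 5-HT arrays of 4 dpf side by side; filled points are replicate 1, open points replicate 2 and short lines the group means. Reserpine replicate 1 is the lowest array in every gene shown, as for mipb at 8.99, and replicate 2 lies nearer to the controls, at 9.99.

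Most genes of inflammation lay above control in the mean of the reserpine arrays, but not on replicate 2 taken alone. The list mean of reserpine replicate 2, 8.401, was still above those of the controls, 8.327 and 8.159. Of 49 genes of the myeloid and inflammation list 48 were tested, with 37 above control and 11 below and a median of 0.198 (all genes -0.02). At an unadjusted p under 0.05, 5 were higher, where 0.245% of all genes were, and 0 lower; the adjusted p of each was 1. The groups did not overlap in 10 higher members, where 6.2% of all genes did not, and in 4 lower ones, where 12.3% did not. At 2 dpf 37 of the 48 also lay above control, with a median of 0.0825. In the 5-HT larvae of 4 dpf 15 of the 48 lay below control, and the median was 0.115.

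The 5 code for secreted products. The cytokine gene il1b, of an early signal of tissue injury and infection, read 9.32 and 8.63 on the controls and 10 and 10.52 on the reserpine arrays. That is 2.44-fold higher (log2 1.285, SE 0.399, 95% interval 0.391 to 2.18), with both reserpine arrays above both controls. The matrix protease gene mmp9 read 8.56 and 7.96 on the controls and 9.38 and 9.73 on the reserpine arrays, which is 2.45-fold higher (log2 1.295, SE 0.327, 95% interval 0.56 to 2.03). The chemokine gene cxcl18b, which attracts neutrophils, read 7.81 and 7.35 on the controls and 8.04 and 8.36 on the reserpine arrays (log2 0.62, 95% interval 0.128 to 1.11). These 3 genes were high on both arrays.

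In the other 2 the difference lay mostly on replicate 2, and replicate 1 lay above the higher control by a small margin. The collagenase gene mmp13a read 7.16 and 7.38 on the controls and 7.62 and 10.47 on the reserpine arrays (log2 1.775, SE 0.751, 95% interval 0.0911 to 3.46). The inhibitor gene timp2b, whose product blocks matrix proteases, read 10.03 and 9.71 on the controls and 10.05 and 11.71 on the reserpine arrays (log2 1.01, 95% interval 0.0896 to 1.93). Without reserpine replicate 2 the differences were 0.35 for mmp13a and 0.18 for timp2b. The cytokine gene il11a, known from fin regeneration in zebrafish, followed the same order, at 6.28 and 5.93 on the controls and 6.04 and 7.21 on the reserpine arrays. The AP-1 gene fosl1a, an immediate early gene, read 8.55 and 7.67 on the controls and 9.08 and 10.39 on the reserpine arrays (log2 1.625, SE 0.788, 95% interval -0.142 to 3.39).

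Genes classed as phagocyte genes were high on replicate 1 alone, and the choice of members bears on that pattern. The 18 phagocyte genes, a class drawn from the list after the values were seen, had a median of 0.782 above the control mean on replicate 1, with 17 above both controls. On replicate 2 the median was -0.112 with 0 above both controls. High counts on replicate 1 were not limited to this class. There 33 of 41 circadian clock genes and 35 of 45 immediate early genes were above both controls, and 1 of 28 erythroid genes was. The share over all genes is not given for this array. Its median over all features was 6.45, beside 6.47 and 6.51 on the controls. The part of a shift of the whole array in these counts was not tested. The neutrophil peroxidase gene mpx read 9.54 and 9.36 on the controls and 10.17 and 9.38 on the reserpine arrays. The NADPH oxidase genes cybb and ncf1, whose products form the respiratory burst enzyme, had differences of 0.33 and 0.50. For acod1, a gene of activated macrophages, the controls read 9.33 and 8.29 and the reserpine arrays 10.45 and 8.7. Other members of the list lay in neither the phagocyte class nor a class of 21 secreted or signalling products. Of these, tlr5b, named because its values were seen, was above both controls on both reserpine arrays. It read 8.32 and 8.43 on the controls and 8.93 and 8.71 on the reserpine arrays. The antigen presentation gene cd74a, likewise in neither class, was lower on both. It read 7.26 and 6.78 on the controls and 6.49 and 6.52 on the reserpine arrays (log2 -0.515, 95% interval -1.05 to 0.0155). The median of the whole list was 0.387 on replicate 1 and -0.07 on replicate 2. Without replicate 1, 18 of the 48 inflammation genes lay above control and 30 below, and 6 were higher at an unadjusted p under 0.05, where 0.37% of all genes were. Without replicate 2, 36 lay above and 13 were higher at that threshold, where 1.36% of all genes were. Without control replicate 1 the count was 3, and without control replicate 2 it was 1, where 0.158% of all genes were in either case.

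Further genes tied to inflammation stood among the 15 highest by p. The C-reactive protein gene crp3, of an acute phase family, read 7.96 and 8.44 on the controls and 9.18 and 9.6 on the reserpine arrays, 2.28-fold higher (log2 1.19, SE 0.267, 95% interval 0.59 to 1.79). Both reserpine arrays were above both controls, and the difference lay between 0.95 and 1.43 with any 1 of the 4 arrays left out. The gene irak3, whose product dampens Toll-like receptor signalling in mammals, read 7.01 and 6.8 on the controls and 8.38 and 7.34 on the reserpine arrays (log2 0.955, 95% interval 0.252 to 1.66). The chemokine gene ccl38a.5 had 0.78 and ifi27.8, of an interferon-induced family, 0.51.

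Interferon response genes were likewise high on replicate 1. Of 37 genes 33 lay above control, with a median of 0.15, and the median was 0.40 on reserpine replicate 1 and -0.125 on replicate 2. The list mean was also higher on replicate 1 than on replicate 2 of the other groups of 4 dpf, at 6.916 and 6.646 for control and 7.224 and 6.591 for 5-HT, beside 7.209 and 6.655 for reserpine. The antiviral gene mxc read 7.84 and 7.72 on the controls and 9.28 and 7.31 on the reserpine arrays. No member had an unadjusted p under 0.05.

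**Figure D4:**
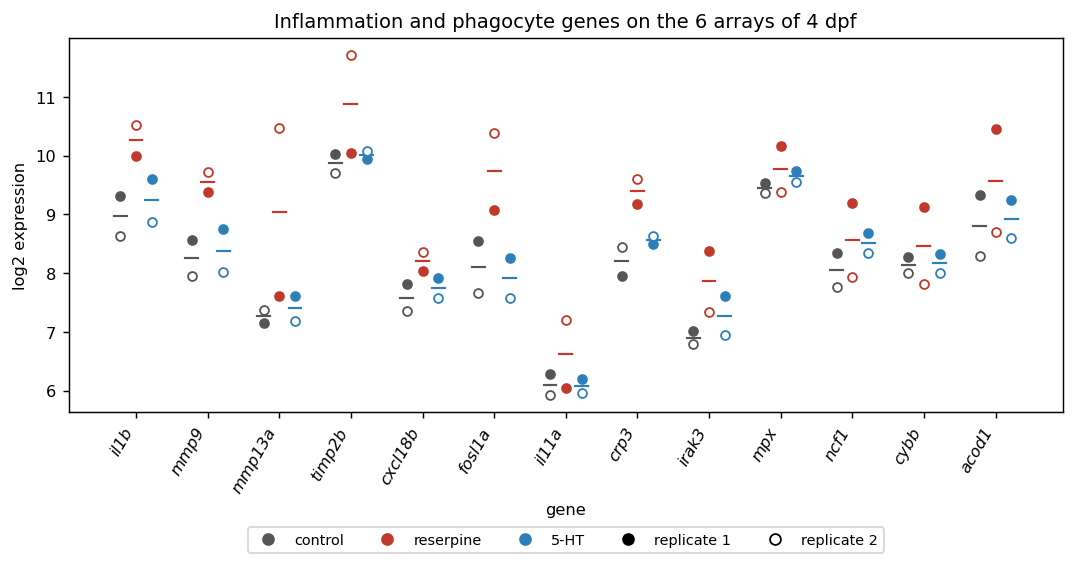
The vertical axis is the log2 expression level and each column is 1 gene, with control, reserpine and 5-HT arrays of 4 dpf side by side; filled points are replicate 1, open points replicate 2 and short lines the group means. The mmp9 and crp3 reserpine arrays lie above both controls, mmp13a reads 10.47 on replicate 2 and 7.62 on replicate 1, and acod1 is highest on replicate 1 (10.45).

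The remaining genes among the 15 highest by p had differences of 0.43 to 0.895 and no overlap between groups. The zymogen granule gene sycn.2, of the exocrine pancreas, read 7.1 and 6.29 on the controls and 7.61 and 7.57 on the reserpine arrays (log2 0.895, 95% interval 0.366 to 1.42). The list of exocrine pancreas genes had a median of 0.0475. The genes tgm1l3, of a transglutaminase family that cross-links the skin barrier in mammals, and krt17, a keratin gene of the epidermis list, read higher on both reserpine arrays. On the controls tgm1l3 read 9.95 and 10.01, and on the reserpine arrays 10.47 and 10.61 (log2 0.56, 95% interval 0.157 to 0.963). On the controls krt17 read 8.82 and 8.66, and on the reserpine arrays 9.56 and 9 (log2 0.54, 95% interval 0.0676 to 1.01). The median of the 54 epidermis genes was 0.025. The genes scpp9, of a family of secreted calcium-binding phosphoproteins, cyp46a1.2, of the cytochrome family that hydroxylates brain cholesterol, and nuggc.2 had 0.68, 0.595 and 0.52. The genes gpr132a, a G protein-coupled receptor gene, nxpe3l and znf1068, a zinc finger gene, had 0.43, 0.79 and 0.59.

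The remaining genes among the 15 lowest by p, outside the lens, had differences of -0.785 to -0.355. The phospholipase gene pla2g3 had the smallest p of these. It read 5.03 and 4.8 on the controls and 3.91 and 4.35 on the reserpine arrays, 1.72-fold lower (log2 -0.785, SE 0.181, 95% interval -1.19 to -0.379). Both reserpine arrays were below both controls, at levels below the median of each array. The RNA helicase gene ddx19a read 6.13 and 6.09 on the controls and 5.26 and 5.77 on the reserpine arrays (log2 -0.595, 95% interval -0.997 to -0.193). The trace amine receptor gene taar19l, of a family of olfactory amine receptors, read 4.57 and 4.65 on the controls and 3.77 and 4.31 on the reserpine arrays (log2 -0.57), and its 5-HT arrays read 3.94 and 4.14. The genes ftr30, of the fish TRIM family, itln4, an intelectin gene, dmrt2b, a transcription factor gene, and zpcx, of the zona pellucida family, had -0.74, -0.585, -0.445 and -0.355.

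Most other lists lay near control, with small differences in one direction. Besides the lens, the medians of the lists ran from -0.12 to 0.198. Of the 70 collagen, cartilage and bone genes 55 lay below control, with a median of -0.10, and both reserpine arrays were below both controls in 19, where 12.3% of all genes were. The fibril-associated collagen gene col9a1a read 9.72 and 9.74 on the controls and 9.52 and 9.37 on the reserpine arrays (log2 -0.285, 95% interval -0.664 to 0.0943), and col27a1b and elnb, an elastin gene, had -0.30 and -0.34. Of the 35 enterocyte genes 26 lay below, with a median of -0.12 and 11 below on both arrays. The peptide carrier gene slc15a1a read 11.07 and 11.21 on the controls and 10.76 and 10.97 on the reserpine arrays (log2 -0.275, 95% interval -0.574 to 0.0236), and lct, a lactase gene, had -0.42. Of the 24 cholesterol synthesis genes 22 lay below, with a median of -0.095. The sterol isomerase gene ebp and the cyclase gene lss had -0.33 and -0.255, and pmvk, an early kinase of the pathway, 0.185. No member of the collagen, enterocyte or cholesterol lists had an unadjusted p under 0.05. Of the 29 hair cell genes 26 lay below, with a median of -0.09 and 6 below both controls on both arrays. Of the 45 immediate early genes 33 lay above, with a median of 0.08 and 9 above both controls on both arrays, where 6.2% of all genes were. The liver plasma protein genes had a median of -0.02, beside 0.605 at 2 dpf. The value at 2 dpf rests on 1 low control array. The list means there were 8.476 and 9.88 on the controls and 9.642 and 9.807 on the reserpine arrays. Both reserpine arrays of 2 dpf thus lay below control replicate 2.

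Neural, muscle and growth lists had medians within 0.1 of 0. The 41 pan-neuronal genes had a median of -0.01, the 34 genes of the synaptic vesicle and release machinery -0.0175, the 40 neural progenitor genes -0.01 and the 61 genes of transmission -0.025. In the last, 43 were below both controls on reserpine replicate 2 and 36 above both on replicate 1, given without the share over all genes. Of the 53 neuropeptide genes 21 lay above and 31 below (median -0.04), with gnrh2, ccka and penka at -0.285, -0.26 and -0.245. The 70 cell cycle genes had a median of -0.045, and gins3, a subunit of the replication helicase, had -0.285. The 82 respiratory chain genes had a median of -0.03, with the subunit genes cox4i1l and ndufs8b at -0.365 and -0.305. Of the 23 stress axis genes 17 lay below control, and hsd3b1, of steroid hormone synthesis, had -0.33. The photoreceptor transcription factor gene nrl had -0.30 and the urea cycle gene otc -0.64, neither with an unadjusted p under 0.05.

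Several lists parted replicate 1 from replicate 2 in the same direction in all 3 groups of 4 dpf, and the clock list did so by the widest margin. The interferon list and the myeloid and inflammation list were among them. The mean of the myeloid and inflammation list was 8.327 and 8.159 on the control arrays and 8.4 and 8.246 on the 5-HT arrays. On the reserpine arrays it was 8.632 and 8.401. The 41 circadian clock genes had a list mean of 9.999 and 9.333 on the control arrays, 10 and 9.314 on the 5-HT arrays and 10.09 and 9.288 on the reserpine arrays, replicate 1 being the higher each time. Their median difference between reserpine and control at 4 dpf was 0.015. At 2 dpf the clock list mean was also higher on replicate 1 in each group. The means there were 9.28 and 8.92 for control, 9.294 and 9.016 for 5-HT and 9.233 and 8.958 for reserpine. Reserpine replicate 1 of 4 dpf, which carried the lowest lens levels and the high phagocyte levels, thus also had the highest clock list mean. The part of this replicate difference in the lens and phagocyte results was not tested. The lens list mean was higher on control replicate 1 (8.273) than on control replicate 2 (8.052). It was lower on 5-HT replicate 1 (7.989) than on 5-HT replicate 2 (8.26). At 2 dpf replicate 1 was the lower array in each group. The means there were 7.961 and 8.379 for control, 7.758 and 7.97 for 5-HT and 7.888 and 8.42 for reserpine.

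**Figure D5:**
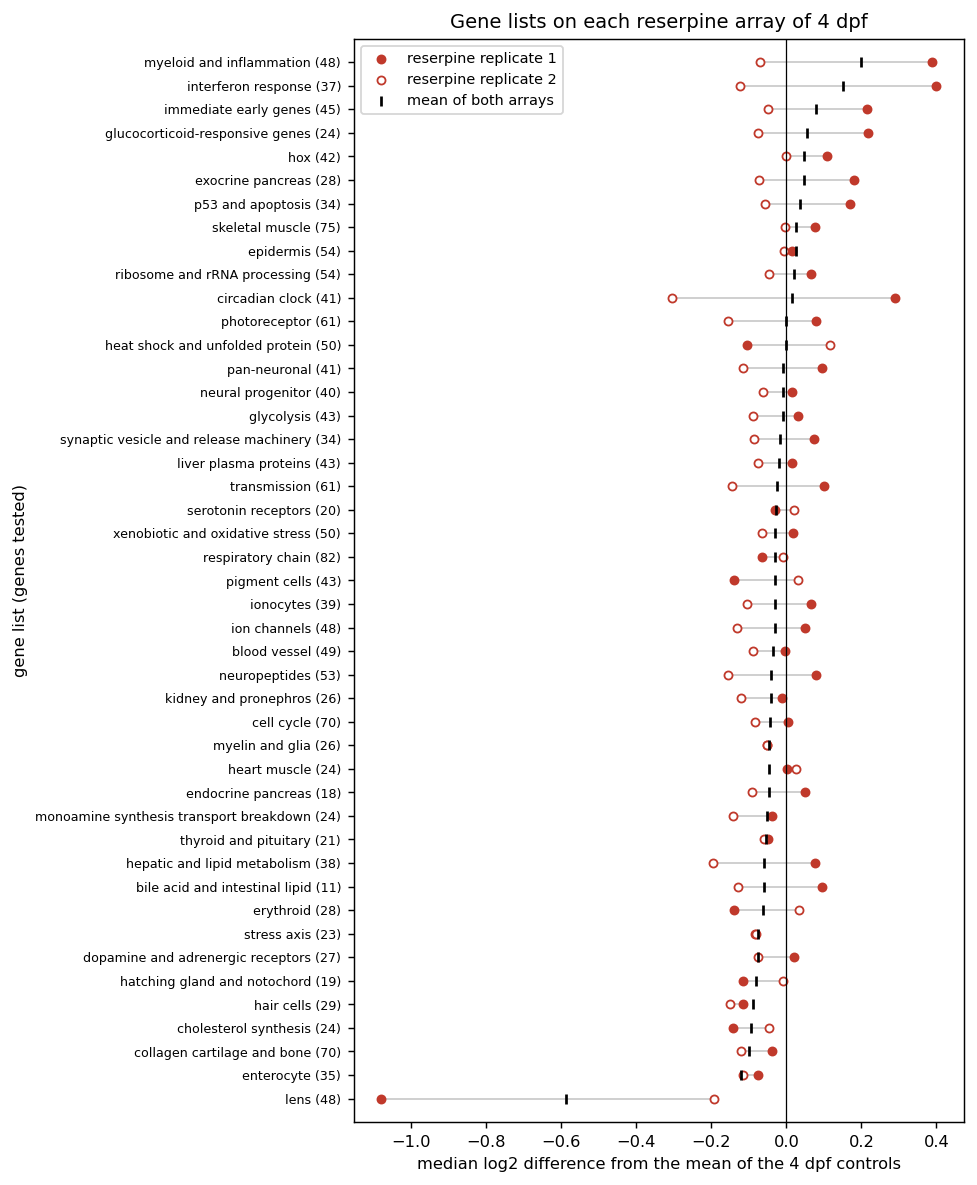
The horizontal axis is the median, over the genes of a list, of the log2 difference from the mean of the 2 control arrays of 4 dpf, and each row is 1 of 45 lists with its number of genes tested. Filled points are reserpine replicate 1, open points replicate 2 and ticks the median for the mean of both arrays; the lens list stands lowest at -0.587, with its arrays at -1.08 and -0.192, and the clock list is spread evenly around 0.

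The same comparison at 2 dpf used other animals and other controls. limma called 0 of 58127 features there, with 2424 (4.17%) at an unadjusted p under 0.05. The test of the reserpine difference at 4 dpf against that at 2 dpf called 0 features, with a smallest adjusted p of 1 and 1430 (2.46%) at an unadjusted p under 0.05. Among the inflammation genes il1b was higher at both ages. It read 6.98 and 6.95 on the controls of 2 dpf and 8.63 and 7.43 on the reserpine arrays (log2 1.065), and the difference between ages was 0.22 (SE 0.564). The immediate early gene fosl1a read 7.67 and 7.65 on the controls of 2 dpf and 10.41 and 7.48 on the reserpine arrays, so that at each age 1 reserpine array stood above 10. For mmp9 and crp3 the differences at 2 dpf were 0.42 and 0.205, which left 0.875 (SE 0.463) and 0.985 (SE 0.378) between ages.

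The genes with the smallest p for that difference between ages included several described above. Of the 8 with a more positive difference at 4 dpf, ifi27.8 had 0.51 at 4 dpf and -0.48 at 2 dpf, drd7 0.485 and -0.375, and sycn.2 0.895 and -0.12. The pancreas gene sycn.2 read between 2.97 and 3.19 on the control and reserpine arrays of 2 dpf, where the array medians were 6.48 to 6.49. Of the 8 with a more negative difference at 4 dpf, casr, the calcium-sensing receptor gene, had -0.41 and 0.615, the glucagon receptor gene gcgra -0.185 and 0.685, and slc15a1a -0.275 and 0.36. The adjusted p was 1 for each. For the lens list the median of the difference between ages was -0.643. At 2 dpf the median lens difference was -0.305 on reserpine replicate 1 and 0.265 on replicate 2.

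Reserpine and 5-HT larvae of 4 dpf were also compared with each other. limma called 0 of 58127 features, with a smallest adjusted p of 0.146 and 6270 (10.8%) at an unadjusted p under 0.05. Fitted on the 6 arrays of 4 dpf alone, 23 features passed, 3 higher and 20 lower in reserpine, with adjusted p from 0.0212 to 0.0463. Only 1 of them carried a gene symbol of its own, the metalloprotease gene adam9a (log2 -1.73, SE 0.134, adjusted p = 0.039), which is named because it was the single one. In adgrb2 and tpm1, the first by p in each direction of the fit on all arrays, the 5-HT arrays stood apart and the reserpine and control arrays overlapped. The adhesion receptor gene adgrb2 read 9.5 and 9.5 on the controls, 9.59 and 9.47 on the reserpine arrays and 8.67 and 8.44 on the 5-HT arrays (reserpine minus 5-HT 0.975, limma adjusted p = 0.208). The tropomyosin gene tpm1 read 5.67 and 5.84 on the controls, 5.46 and 5.77 on the reserpine arrays and 7.58 and 7.39 on the 5-HT arrays (reserpine minus 5-HT -1.87, limma adjusted p = 0.208). The gene krt17 had the reserpine arrays highest and the 5-HT arrays, at 8.46 and 8.18, lowest. The controls of 4 dpf serve both treatments, so the values are set side by side: the lens median was -0.587 for reserpine and -0.0325 for 5-HT, and the inflammation median 0.198 and 0.115.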

How the data were processed

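RNA of whole larvae was measured on 12 Affymetrix zebrafish gene arrays (version 1.0), 2 per group. Values are log2 expression per feature, used as the authors deposited them. No source used here names the software, background correction or normalization, and array medians lay between 6.44 and 6.56. No value column was left unused. Of 73244 features, 20491 carried 1 gene symbol, 842 several and 51911 none, per the platform annotation; of those with 1 symbol, 20013 matched a RefSeq gene table. Control features could not be told apart and were kept.

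Features reaching their array's 25th percentile on at least 2 arrays were tested, which left 58127. limma 3.58.1 in R 4.3.3 (lmFit, eBayes, two-sided) was fitted to 6 group means on all arrays, with 6 residual and 3.53 prior degrees of freedom and Benjamini-Hochberg adjustment over all features; an adjusted p under 0.05 was a call. A gene was represented by its feature of highest mean. The number of arrays limits the precision of every value. The p-values measure the spread between pools.

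Genes were named by a rule: up to 15 per direction by size if called, otherwise by smallest unadjusted p, leaving out provisional names; 16 monoamine genes; up to 5 members of a list by p; 8 per direction for the other comparisons. The members and the 45 lists were chosen with earlier results of these data known. List symbols were matched through RefSeq synonyms, and 5 matches to unrelated genes were removed after values had been seen. Lists are described by counts and medians, without a test. The fit was run on simulated data with known changes, to check only that their median size was returned. The simulated noise was drawn for each feature separately, and no conclusion on how many changes could be called is drawn from it. Alternatives were other filters, scalings and arrays, moderated trend, a replicate block and leaving out each array.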

Additional observations from a re-analysis of the deposited data

Results flagged for a closer look

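The 70 collagen, cartilage and bone genes had a median difference between ages (reserpine minus control at 4 dpf, less the same at 2 dpf) of -0.13, and their list mean lay on opposite sides of the controls at the 2 ages. At 4 dpf the list mean was 9.458 and 9.473 on the controls and 9.408 and 9.334 on the reserpine arrays. At 2 dpf it was 9.559 and 9.558 on the controls and 9.582 and 9.602 on the reserpine arrays. The opposite sides at the 2 ages are what drew attention to the list, and this difference between ages was not tested. Groups of 2 arrays were not searched for single outlying arrays.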

How the results depend on the processing

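No feature passed between reserpine and control in the fit as reported or under any of the 12 alternatives, with smallest adjusted p from 0.206 to 1. Without adjustment 1004 features had a p under 0.05 as reported, 428 with a stricter filter, 1480 with none, 1423 with the 4 dpf arrays alone, 1451 with the 4 compared arrays and 802 to 3137 with 1 array left out. With the replicate block 0 passed and 1604 had such a p. Under that block 24 lens genes were lower (13 as reported), where 0.68% of all genes were, and 9 inflammation genes higher (5 as reported), where 0.446% were. At 4 dpf, deviations of same-numbered arrays correlated at 0.33 for control and reserpine, 0.23 for control and 5-HT and 0.18 for 5-HT and reserpine. At 2 dpf the same pairs of groups correlated at 0.18, 0.29 and 0.2. Between groups of different age the values ran from -0.07 to 0.22. The labels do not say that a number marks a shared batch, and 2 numbers per group are too few to establish a pairing from the data. The comparison with 2 dpf also stayed at 0, and that with 5-HT at 0 except for 23 features with the 4 dpf arrays alone. Median centring put the median of all genes at -0.035 and quantile scaling at -0.0277.

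With 1 array left out, list medians ran from -1.08 to -0.192 (lens), -0.05 to 0.215 (immediate early genes), -0.0925 to 0.05 (endocrine pancreas), -0.132 to 0.05 (ion channels), -0.0825 to -0.0125 (myelin and glia), -0.0725 to 0.075 (epidermis), -0.14 to 0.0325 (erythroid) and -0.122 to -0.0125 (kidney). Other lists changed sign as well, among them circadian clock (-0.305 to 0.29), interferon response (-0.125 to 0.4) and myeloid and inflammation (-0.07 to 0.387). Of 1092 values of 93 genes under alternatives, 0 had an adjusted p under 0.05. The sign turned in 21, in 17 genes, each with 1 array left out; the cause was not tested. Their ranges were -0.11 to 1.64 (acod1), -0.33 to 0.99 (cybb), -0.26 to 0.21 (dbh), -0.345 to 2.445 (ifi44a1), -0.065 to 1.105 (il11a), -0.12 to 2.15 (lepb), -0.125 to 0.205 (mpeg1.2), -0.07 to 0.72 (mpx), -0.47 to 1.5 (mxc) and -0.13 to 1.13 (ncf1). Among monoamine genes they were -0.195 to 0.385 (slc18a2), -0.225 to 0.025 (slc6a2), -0.08 to 0.01 (slc6a4a), -0.405 to 0.335 (th), -0.205 to 0.035 (th2), -0.17 to 0.11 (tph1b) and -0.04 to 0.1 (tph2).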
